A study of Homo sapiens with 22 samples.

Results

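Kasumi-1 cells with less FIP1L1 were compared with control cells at 1630 places in the genome where exactly 2 poly(A) sites lay close together on 1 strand. A poly(A) site is the position at which a pre-mRNA is cut and given its poly(A) tail. The places were found in a table of 1618880 sites. Sites off the mitochondrial chromosome with a mean of at least 5 reads over the 10 libraries were kept, which left 34780. Neighbouring kept sites of a strand at most 2000 nt apart were joined into 22145 runs, of which 6556 held more than 1 site and 3665 held exactly 2. The 1630 runs described here had 2 sites at most 300 nt apart, which is 44.5% of the two-site runs and 24.9% of all runs with more than 1 site. They were thus chosen by position and by read counts averaged over all 10 libraries. Group labels were not used, but a site that is high in 1 group can reach the minimum through that group.

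In each run the site met first by the polymerase is called proximal and the other distal. The readout is the reads at the distal site over the reads at the proximal site, or the distal share of the reads of both. Cleavage is carried out by the cleavage and polyadenylation specificity factor (CPSF) with partner complexes that read U-rich, GU-rich and UGUA-containing sequence around the cut. FIP1L1 is the CPSF subunit that binds U-rich RNA and contacts poly(A) polymerase. Use of 1 rather than the other of 2 sites so near each other generally shortens or lengthens the 3′ end of a transcript by a small stretch. An annotation of the build used by the files, hg19, was not used here, so runs are named by chromosome, positions and strand and are not assigned to genes. No source used here says whether positions count from 0 or from 1.

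Kasumi-1 is an established acute myeloid leukaemia line that carries the RUNX1-RUNX1T1 fusion. Cells received lentivirus with FIP1L1 shRNA 1, FIP1L1 shRNA 2 or a control shRNA and were selected with puromycin, so all groups share the transduction and the drug. The assay was 3'READS, which sequences the ends of polyadenylated RNA, on 4 libraries with shRNA 1, 3 with shRNA 2 and 3 with the control shRNA. RNA-seq of the same cells had 4 libraries per group. The replicates are labelled biological, but no label says whether each had its own transduction. The p-values below therefore cover the scatter among these libraries, which may in part be technical.

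FIP1L1 mRNA stood at 14.1 to 17.6 CPM, a count scaled to library size, in the 4 shRNA 1 RNA-seq libraries and 18.7 to 20.2 CPM in the 4 shRNA 2 libraries, against 38.9 to 44.0 CPM in the 4 control libraries. That is 37.1% of the control level with shRNA 1 (log2 change -1.43, SE 0.0980, edgeR adjusted p 1.92e-11) and 47.4% with shRNA 2 (log2 change -1.08, SE 0.0964, edgeR adjusted p 3.01e-09). The progenitor markers KIT, CD34, MPO, CD33 and RUNX1 were at 43.6 CPM or more in every library, but their levels differed between groups. With shRNA 1 they stood at 80.4%, 19.8%, 44.4%, 87.3% and 47.8% of the control level, in that order. With shRNA 2 they stood at 100.4%, 68.3%, 61.1%, 253.5% and 95.8%. Among markers of other cell types, CD3D, CD3E, CD8A, KRT19 and COL1A1 reached at most 4.64 CPM, and EPCAM, an epithelial surface marker, was at 38.2 to 149 CPM.

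Of the 3'READS libraries, 3 stood apart from the others of their group. Control replicate 3 and shRNA 1 replicates 1 and 2 differed from libraries of their own group with a chi-square over degrees of freedom of 18.8 to 37.9 across the sites of these runs. For all other pairs within a group it was 2.83 to 4.93, where counting error alone gives a value near 1. Over the 465 runs with a mean of at least 20 reads at both sites, the log2 ratio of control replicate 3 correlated best with shRNA 1 replicate 1 (r = 0.924 across runs), and less with its own group (0.905 and 0.906). Sites of these runs with no read numbered 153 in control replicate 3 and 244 and 349 in shRNA 1 replicates 1 and 2, against 19 to 81 in the other 7 libraries. The labels give no batch. All values below rest on the 10 libraries unless 7 libraries are named. The 7-library values leave these 3 libraries out, an alternative chosen after both the libraries and the 10-library calls had been seen. It keeps 2 libraries with shRNA 1, 3 with shRNA 2 and 2 controls.

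The 2 sites of a run were 25 to 300 nt apart, with a median of 96 nt and quartiles of 58 and 179 nt. No kept sites of a strand anywhere lay closer than 25 nt, and 12 of the runs stood at that spacing. Spacing at the limit of 300 nt occurred in 8 runs. The next wider two-site run, 1 nt outside, was chr3:129274058-129274359 on the minus strand, with a mean of 11.2 proximal and 400.3 distal reads. Among the member sites, 33 had a mean of exactly 5.0 reads, and 433 sites of the table at 4.9 were left out. The runs held 8.14% to 9.61% of the reads off the mitochondrial chromosome in each library.

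Reads were unevenly split between the sites. The median run had 92.6 reads per library over both sites, while its weaker site, called the minor site below, had a median of only 10.9. The distal site was the stronger 1 in 907 runs. In 828 runs the minor site had under 20% of the reads, and the quartiles of the distal share were 24.4% and 83.5%. At the deep end, chr20:35869820-35870020 on the plus strand had a mean of 124 proximal and 41545 distal reads, and its distal share lay between 99.41% and 99.96% in every library. A site of either kind with a mean under the minimum of 5 reads in some group occurred in 626 runs, and 1004 runs did not fall under it in any group. Such a site was under the minimum with shRNA 1 in 313 runs and with shRNA 2 in 144, against 367 in the controls.

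The median distal over proximal ratio of the runs was lower in every shRNA library than in every control. The median over the 1630 runs of log2((distal + 1)/(proximal + 1)) was 0.278, 0.415, 0.430 and 0.387 in the shRNA 1 libraries and 0.222, 0.200 and 0.265 in the shRNA 2 libraries, against 0.517, 0.493 and 0.459 in the controls. All 7 shRNA libraries lay below all 3 controls, the 3 libraries that stood apart included. In the 465 deeper runs the library medians were 0.191 to 0.212 with shRNA 1 and 0.0597 to 0.109 with shRNA 2, against 0.238 to 0.365 in the controls.

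**Figure D1:**
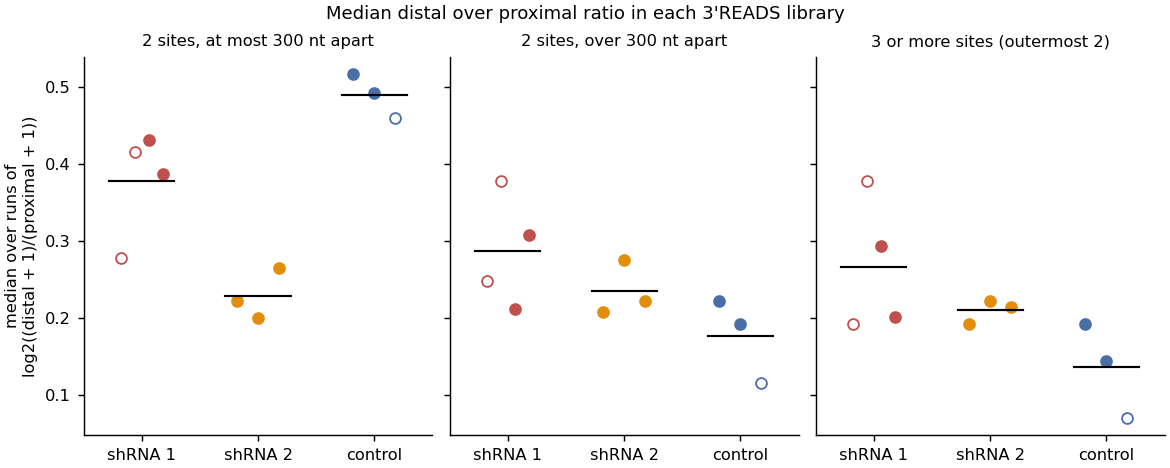
Each point is 1 3'READS library and each bar a group mean; the y axis is the median over runs of log2((distal + 1)/(proximal + 1)), for the 1630 short runs, for 2035 two-site runs with wider spacing and for 2891 runs of 3 or more sites, where the outermost sites were used. Open points are the libraries that stood apart. In the short runs every shRNA library lies below every control, from 0.200 to 0.430 against 0.459 to 0.517, and in the other panels the groups are not ordered this way.

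The wider runs did not share this order. Two-site runs over 300 nt apart had library medians of 0.212 to 0.379 with shRNA 1 and 0.207 to 0.276 with shRNA 2, against 0.115 to 0.222 in the controls. The fitted log2 change of the distal over proximal ratio separated the classes in the same way. Its median over the short runs was -0.106 with shRNA 1 and -0.218 with shRNA 2, beside 0.127 and 0.0709 over the wider two-site runs and 0.0878 and 0.00301 over all 6556 runs tested. With 7 libraries it was -0.125 and -0.206 over the short runs, beside 0.0826 and 0.00861 over the wider two-site runs and 0.0455 and -0.0196 over all runs. With 10 libraries the change was below 0 in 54.9% of the short runs with shRNA 1 and 59.5% with shRNA 2, beside 46.6% and 49.8% of all runs. The difference between run classes was not tested. Both comparisons use the same control libraries.

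Few single runs passed the test. The ratio was tested with edgeR's quasi-likelihood F test on all 6556 runs at once, with p-values adjusted by the Benjamini-Hochberg method and called under 0.05. With shRNA 1 against the control, 4 short runs became more distal and 2 more proximal, 0.368% of the 1630, where 0.366% of all runs tested were called in each direction and 0.732% in either. At an unadjusted p under 0.05, 73 short runs were more proximal and 47 more distal, beside 4.44% and 6.6% of all runs. Every shRNA 1 library lay below every control in 98 short runs, or 6.01%, and above in 66, or 4.05%, beside 4.76% and 7.14% of all runs. With 7 libraries the balance was turned, with 26 called more proximal and 16 more distal, beside 1.98% and 2.14% of all runs and 4.12% in either direction. Leaving out 1 library gave 4 to 22 and 6 to 14, lowest without control replicate 2 (4 and 6) and control replicate 1 (8 and 6), and 11 and 8 without shRNA 1 replicate 3. Without shRNA 1 replicate 4 the proximal count was 16. The 6 runs called with 10 libraries and the others called below were singled out because they passed, that is, after their values were seen. They are lettered by spacing as in the plot of distal shares by library. Among them, only runs C and H kept the call with shRNA 1 in over 3 of the 10 fits that left out 1 library.

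Run H, chr10:23409899-23410021 on the plus strand, 122 nt apart, became more distal with shRNA 1. Its distal share was 55.3%, 57.1%, 44.9% and 50.6% in the shRNA 1 libraries, against 11.1%, 9.42% and 11.2% in the controls. The groups stood far apart, and the proximal site fell while the distal site rose. The log2 change of the ratio was 3.19 (SE 0.512, edgeR adjusted p 0.00637), from -1.64 at the proximal site (edgeR adjusted p 0.000693) and 1.53 at the distal site (edgeR adjusted p 0.0148). Fewer cells of a kind and less RNA per cell cannot be told apart in such bulk samples. The call was lost without control replicate 1 and without control replicate 2, and kept in the other 8 fits that left out 1 library.

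Run F, chr11:33106039-33106135 on the minus strand, 96 nt apart, moved the same way. The distal share was 27.5%, 53.8%, 49.4% and 37.0% with shRNA 1, against 7.30%, 9.50% and 9.86% in the controls, with no overlap. The log2 change was 2.86 (SE 0.613, edgeR adjusted p 0.0379), and the proximal site fell (log2 change -1.77, edgeR adjusted p 0.00418). In the shRNA 2 libraries the share was 21.3%, 37.8% and 21.1%, also above every control, but the change of 1.89 did not pass (edgeR adjusted p 0.329). The call with shRNA 1 was kept in 1 of 10 fits that left out 1 library.

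Run J, chr20:24986638-24986874 on the minus strand, 236 nt apart, was a nearly pure proximal site in the controls. Its distal site had 5, 26, 20 and 8 reads with shRNA 1, against 0, 2 and 1 in the controls, beside 672 to 1111 proximal reads with shRNA 1 and 1081 to 1849 in the controls. A minor site of a few reads appeared there in all 4 shRNA 1 libraries (edgeR adjusted p 0.0367 for the ratio), and with 3 reads over the controls no fold is given. The site reached the minimum mean of 5 reads through the shRNA 1 libraries. A difference of this direction thus comes with the run being a member. The call was kept in 3 of 10 fits that left out 1 library.

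Run K, chr5:132203378-132203650 on the plus strand, 272 nt apart, lost such a minor site. The distal site had 0, 0, 3 and 2 reads with shRNA 1, against 16, 30 and 24 in the controls, while the proximal site had 701 to 1405 and 1693 to 2665 reads. Every shRNA 1 library lay below every control (log2 change of the ratio -3.20, SE 0.680, edgeR adjusted p 0.0379), and the call was kept in 2 of 10 fits that left out 1 library.

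Run D, chr11:63391560-63391605 on the minus strand, 45 nt apart, was called more proximal with shRNA 1, and its proximal site rose with both shRNAs. The proximal site had 23, 22, 47 and 23 reads with shRNA 1 and 28, 68 and 50 with shRNA 2, against 7, 7 and 5 in the controls. The rise of the site was 2.21 on the log2 scale with shRNA 1 (edgeR adjusted p 0.00293) and 2.54 with shRNA 2 (edgeR adjusted p 0.00328). In distal share this was 79.6% to 88.6% with shRNA 1 and 78.8% to 84.8% with shRNA 2, against 95.6% to 97.6% in the controls. The call with shRNA 1 (log2 change -2.39, SE 0.538, edgeR adjusted p 0.0482) was lost in each of the 10 fits that left out 1 library, and the change with shRNA 2 of -2.71 did not pass (SE 0.562, edgeR adjusted p 0.104). With 7 libraries both passed (edgeR adjusted p 0.00298 and 0.000135).

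Run C, chr15:68132399-68132442 on the minus strand, 43 nt apart, had few reads. Its distal site had 30, 0, 8 and 8 reads with shRNA 1 and its proximal site had none, against 0, 0 and 2 distal and 13, 28 and 15 proximal reads in the controls. With no reads at the proximal site no fold is given (edgeR adjusted p 0.0135 for the ratio). The distal site reached the minimum mean of 5 reads mainly through shRNA 1, so a rise there comes with the run being a member. In shRNA 1 replicate 2 neither site had a read. The call was lost without control replicate 1 and without control replicate 2.

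**Figure D2:**
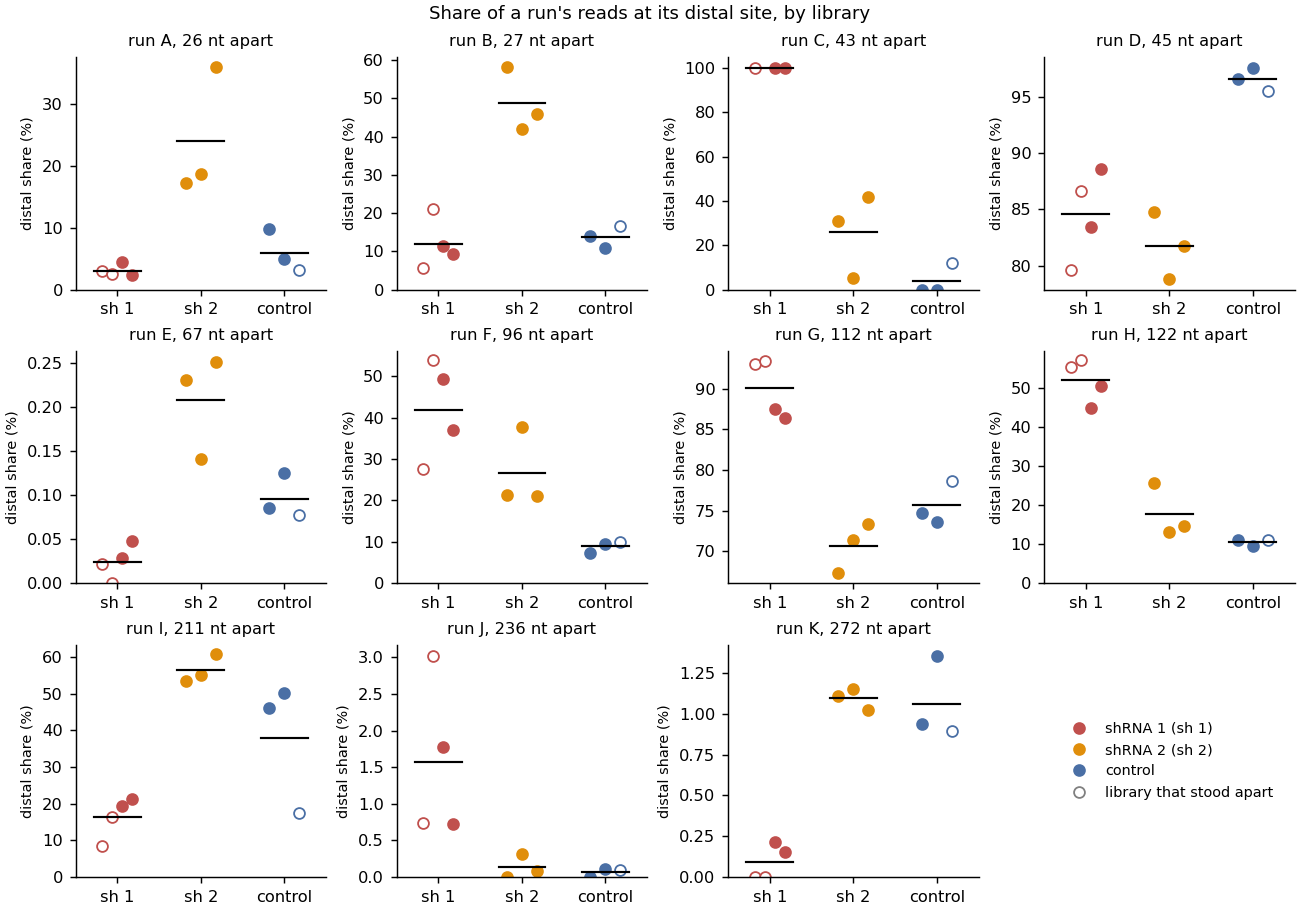
Share of a run's reads that lay at the distal site, in percent, for the 11 short runs called in any comparison with 10 libraries; each point is a library, each bar a group mean, and open points are the libraries that stood apart. The y scales differ, and those of runs D and G do not start at 0. In runs C, F, H and J the shRNA 1 libraries with reads lie above every control, and in runs D and K they lie below.

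With shRNA 2 against the control, no short run and 0.0% of all runs tested passed with 10 libraries. At an unadjusted p under 0.05, 128 short runs were more proximal and 42 more distal, beside 4.67% and 4.84% of all runs. In either direction these were 10.4% of the short runs and 9.5% of all runs. DESeq2 called 14 more proximal and 2 more distal, and limma with a pseudocount of 5 called 11 and 4. With edgeR 8 more proximal and 1 more distal run passed without shRNA 1 replicate 1, and 5 more proximal without shRNA 1 replicate 2, libraries that enter only the shared estimate of spread. The libraries themselves were well separated in many runs. In 288 short runs, or 17.7%, every shRNA 2 library had a lower ratio than every control, where 11.9% of all runs did. The opposite held in 133, or 8.16%, against 13.2% of all runs.

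With 7 libraries the same comparison called 115 short runs more proximal and 34 more distal. That is 7.06% and 2.09% of them, beside 4.0% and 3.45% of all runs and 7.44% in either direction. DESeq2 on the 7 libraries called 48 and 12, and limma 70 and 18. The counts leaned on the 2 remaining controls: without control replicate 1 they were 49 and 15, and without control replicate 2 they were 17 and 3. Without shRNA 2 replicate 1 the distal count was 22. More proximal outnumbered more distal in each of these fits. In two-site runs over 300 nt apart the 7-library counts were 48 more proximal and 83 more distal.

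The spacing of the sites went with the size of the change under shRNA 2. Its median log2 change was -0.193 over 325 runs of 25 to 50 nt, -0.401 over 516 runs of over 50 to 100 nt and -0.172 over 480 runs of over 100 to 200 nt. Over the 309 runs of over 200 to 300 nt it was 0.0582. At over 50 to 100 nt the library medians were 0.0571 to 0.170 with shRNA 2, against 0.404 to 0.585 in the controls, and at over 200 to 300 nt they were 0.415 to 0.485, against 0.241 to 0.357. In these library medians the order of the groups was turned round in the widest class. With 7 libraries the fitted median change there was -0.00337 and no longer above 0, and in the narrower classes it was -0.136, -0.388 and -0.219.

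More proximal and more distal runs called with 7 libraries for shRNA 2 numbered 27 and 5 at 25 to 50 nt (8.31% and 1.54%). At over 50 to 100 nt they numbered 62 and 5 (12% and 0.969%). At over 100 to 200 nt they numbered 22 and 13 (4.58% and 2.71%), and at over 200 to 300 nt 4 and 11 (1.29% and 3.56%). Of all runs 4.0% and 3.45% were called, so the shares at over 100 to 200 nt were near that background. Beyond 300 nt the 10-library median change with shRNA 2 was -0.00816 at over 300 to 500 nt, 0.0153 at over 500 to 1000 nt and 0.171 at over 1000 to 2000 nt. With 7 libraries these were -0.128, -0.0164 and 0.152. Across the 1630 short runs, which share libraries and so are not independent, the rank correlation of spacing with the change was weak (Spearman's rho 0.124 with shRNA 2 and 0.113 with shRNA 1). With shRNA 1 the median changes were -0.214, -0.222, 0.00445 and 0.0608 from the narrowest to the widest class, and with 7 libraries -0.205, -0.241, -0.0538 and 0.113. The median depth of the runs was similar in the 4 classes, 84.4 to 107 reads.

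**Figure D3:**
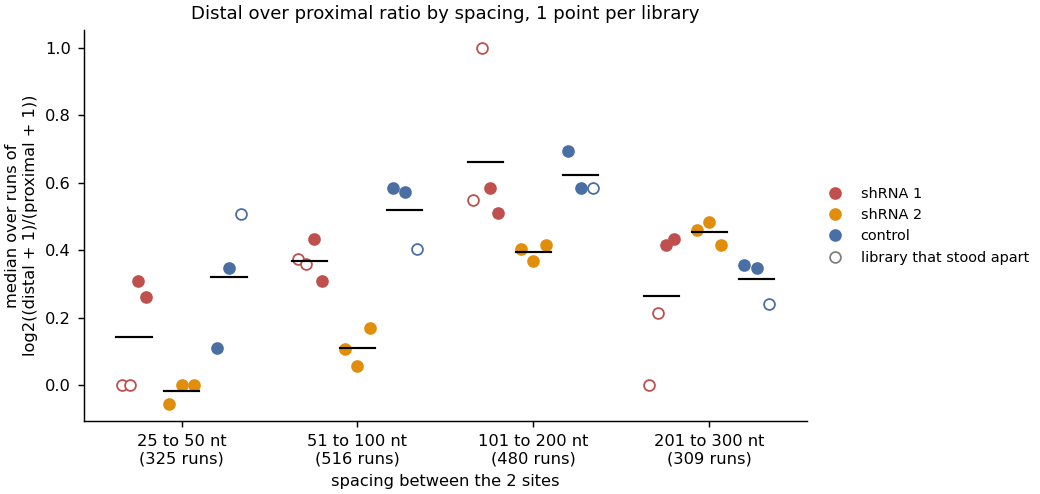
Median over runs of log2((distal + 1)/(proximal + 1)) in each library, for 4 classes of spacing; points are libraries, bars are group means and open points are the libraries that stood apart. At over 50 to 100 nt the shRNA 2 libraries (0.0571 to 0.170) lie below every control, and at over 200 to 300 nt (0.415 to 0.485) above every control.

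Which site was the minor one also went with the direction. With shRNA 2 the minor site had a larger median share, by more where it was proximal than where it was distal. The median share of the minor site was 18.5%, 18.8% and 18.5% in the shRNA 2 libraries, against 15.1%, 15.2% and 13.6% in the controls. With shRNA 1 it was 14.0%, 11.1%, 16.0% and 16.7%, which overlaps the controls, and the 2 lowest are the libraries that stood apart. Where the minor site was proximal, in 907 runs, its median share was 18.9% to 19.4% with shRNA 2, against 12.5% to 14.3% in the controls. Where it was distal, in 723 runs, the shares were 17.6% to 17.8%, against 14.8% to 16.5%. The fitted median log2 change of minor over major site was 0.455 in the first set and 0.0727 in the second. With 7 libraries, 95 runs of the first set were called with the minor site higher and 5 lower, and 29 and 20 of the second. Over all runs these were 214 and 53 of 3499, and 173 and 48 of 3057.

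In 320 runs, or 19.6%, every shRNA 2 library had the minor site higher relative to the major site than every control, and in 101, or 6.2%, lower. Over all runs tested the shares were 17.1% and 7.99%. Of the 488 runs called with 7 libraries among all 6556, 387 had the minor site higher and 101 lower, or 5.9% and 1.54% of all runs tested. Among the 149 short runs called, 124 had it higher and 25 lower, a similar balance. Without control replicate 2 these counts were 13 and 7, and without control replicate 1 they were 56 and 8. A site near the minimum of 5 reads can pass because it is high in 1 group, and fewest sites were under it with shRNA 2. How far that enters the counts was not tested. In the 465 runs with at least 20 reads at both sites, the 7-library counts were 60 higher and 20 lower, beside 187 and 55 of all 1714 runs of that depth, which is a similar share. In these 465 runs the median minor share was 23.5% to 23.6% with shRNA 2, against 20.3% to 20.9% in the controls.

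Runs in which over 80% of the reads were distal shifted most, with a median log2 change of -0.599 over 471 runs. Runs of 50% to 80% distal reads had -0.346, runs of 20% to 50% had -0.101, and runs under 20% had 0.201. In the first of these classes the 7-library fit called 55 runs more proximal and 1 more distal (11.7% and 0.212%). In the last, of 357 runs, it called 3 and 21 (0.84% and 5.88%), beside 4.0% and 3.45% of all runs. The classes were cut on the distal share over the same 10 libraries. Minor sites are proximal in the first class and distal in the last, so these directions restate the rise of the minor site. With shRNA 1 the medians of the same classes were -0.143, -0.135, -0.0505 and -0.0858.

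**Figure D4:**
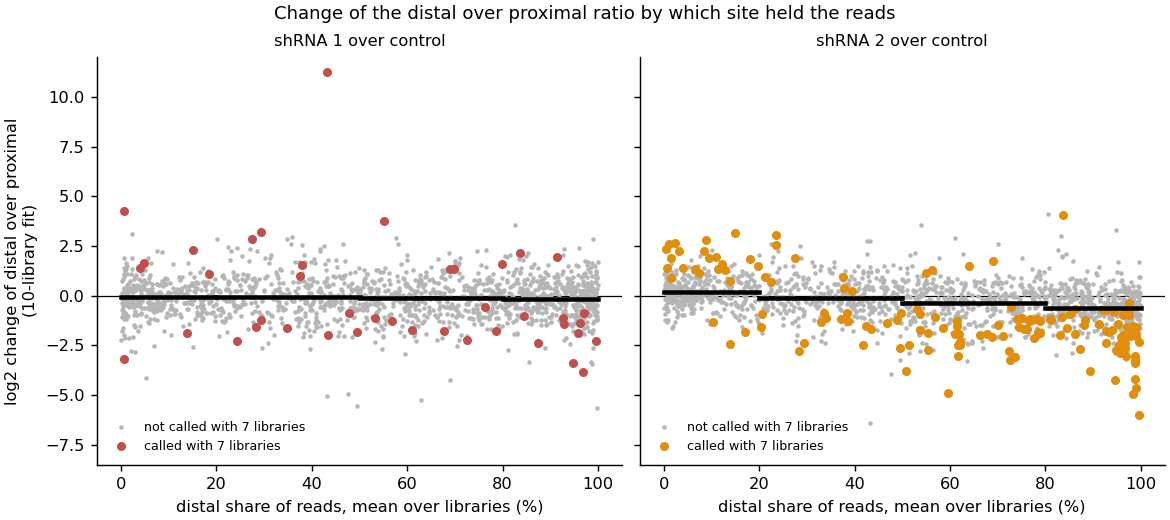
Each point is a short run; the x axis is its distal share of reads over the libraries in percent, the y axis the log2 change of distal over proximal from the 10-library fit, for shRNA 1 over control (left) and shRNA 2 over control (right). Thick black lines are medians in 4 classes of distal share and coloured points are runs called with 7 libraries. For shRNA 2 the medians run from 0.201 in runs under 20% distal to -0.599 in runs over 80% distal. The topmost point on the left is run C, whose fitted value is not interpretable.

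Changes of single sites were counted for each end. With shRNA 2 and 10 libraries, 72 proximal sites rose (4.42%) and 57 fell (3.5%), out of 1630. Of the distal sites, 43 rose (2.64%) and 64 fell (3.93%), where 2.92% of all 34780 sites tested rose and 3.39% fell. With shRNA 1, 125 proximal sites rose (7.67%) and 112 fell (6.87%), and 100 distal sites rose (6.13%) and 132 fell (8.1%). These are near the 6.68% and 7.05% of all sites. In the 115 runs that the 7-library fit called more proximal with shRNA 2, the proximal site alone rose in 65, it rose while the distal site fell in 27, and the distal site alone fell in 20. Their median log2 change was 1.65 at the proximal and -0.391 at the distal site. The call rests on these same reads, so a rise of the proximal or a fall of the distal site comes with it. In 95 of the 115 the proximal site was the minor one, so the larger change there does not tell which end responded. In the 34 called more distal, the distal site alone rose in 15, the proximal site alone fell in 11, and both moved in opposite directions in 5. Over all sites tested with 7 libraries, 13.5% rose and 14.1% fell.

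**Figure D5:**
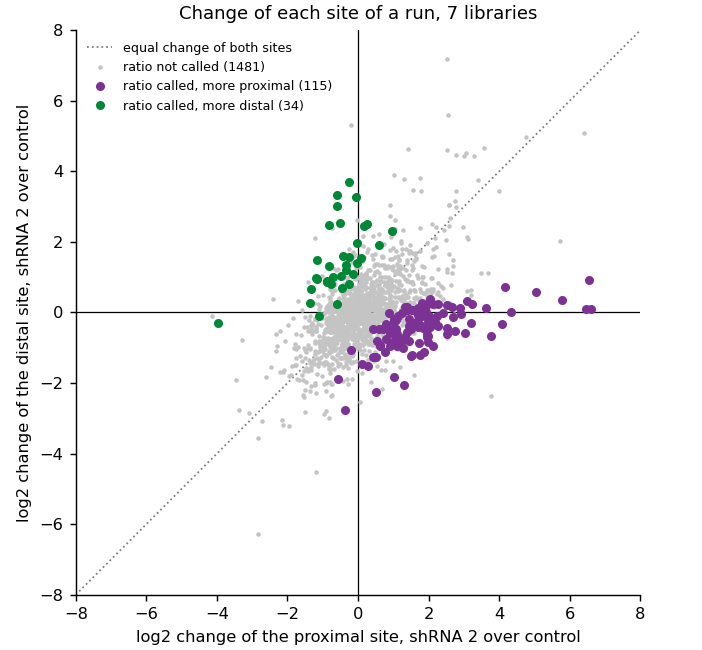
Log2 change with shRNA 2 over control of the proximal site (x axis) and of the distal site (y axis) of each short run, from the 7-library fit of single sites; the dotted line marks equal change. The 115 runs called more proximal spread along the x axis, with a median of 1.65 at the proximal and -0.391 at the distal site. The 34 called more distal lie above the dotted line, and the side of the line comes with the call.

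Under the rule for named runs, members had to be called with both shRNAs in 1 direction, hold at least 100 reads per library on average and have no overlap with the controls. With 10 libraries 0 runs met it. With 7 libraries 17 did in the proximal direction, of which the 8 largest are named, 3 did in the distal direction and 0 were called in opposite directions. Besides run D and a run on chromosome 8, the 8 were the following 6.

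The run chr15:101610258-101610311 on the plus strand, 53 nt apart, gained a proximal site. It had 14, 9, 8 and 14 proximal reads with shRNA 1 and 10, 30 and 15 with shRNA 2, against 2, 0 and 1 in the controls, beside 117 to 281 distal reads in all groups. All shRNA libraries were above all controls. The proximal site rose with 10 libraries for shRNA 1 (edgeR adjusted p 0.0108) and shRNA 2 (edgeR adjusted p 0.0162). That site reached the minimum mean of reads through the shRNA groups, so a rise there comes with the run being a member. The ratio passed with 7 libraries only (edgeR adjusted p with 7 libraries 0.0323 for shRNA 1 and 0.000554 for shRNA 2, and with 10 libraries 0.0829 and 0.104).

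The run chr22:47080308-47080426 on the minus strand, 118 nt apart, had 14, 11, 20 and 17 proximal reads with shRNA 1 and 7, 20 and 11 with shRNA 2, against 0, 0 and 5 in the controls. Its distal site had 752 to 3280 reads in every library. The proximal site, too, reached the minimum through the shRNA groups, so the same limit applies. Control replicate 3, which held the 5 reads, is among the libraries left out of the 7-library fit, and with all 10 the change did not pass for shRNA 1 (edgeR adjusted p 0.243) or for shRNA 2 (edgeR adjusted p 0.342).

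The minor site was larger at chr3:5261544-5261649 on the plus strand, 105 nt apart. The distal share was 53.1%, 52.0%, 52.6% and 59.1% with shRNA 1 and 48.0%, 53.2% and 51.1% with shRNA 2, against 87.2%, 84.5% and 68.9% in the controls. Every shRNA library was below every control. With 7 libraries the log2 change for shRNA 1 was -2.22 (edgeR adjusted p 0.0207) and for shRNA 2 -2.51 (edgeR adjusted p 0.00324), and with 10 libraries -1.74 and -1.93 (edgeR adjusted p 0.201 and 0.287).

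The run chr4:433781-433829 on the minus strand, 48 nt apart, shows how much control replicate 3 weighs. Its distal share was 35.7%, 64.7%, 77.2% and 69.3% with shRNA 1 and 61.8%, 61.0% and 59.7% with shRNA 2, against 92.5%, 90.1% and 65.3% in the controls. The third control lay among the shRNA libraries. The log2 change with shRNA 2 was -2.73 with 7 libraries (edgeR adjusted p 5.91e-06) and -1.93 with 10 (edgeR adjusted p 0.400).

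In the last pair named by the rule the proximal site was a small minority. It had 2, 1 and 5 reads in the controls at the first run and 3, 2 and 8 at the second. Both proximal sites thus reached the minimum through the shRNA groups. At chr18:43708133-43708281 on the plus strand, 148 nt apart, the distal share was 88.1% to 100% with shRNA 1 and 87.7% to 92.1% with shRNA 2, against 91.9% to 99.2% in the controls. At chr7:27210226-27210271 on the minus strand, 45 nt apart, it was 91.8% to 100% and 92.0% to 96.0%, against 97.7% to 99.5%. The groups overlapped in both once all 10 libraries were counted, except for shRNA 2 at the second.

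Of the 3 runs named as more distal, the first weighs control replicate 3 heavily. At chr2:47387223-47387309 on the minus strand, 86 nt apart, the distal share was 68.5%, 64.2%, 35.0% and 33.2% with shRNA 1 and 33.4%, 29.5% and 29.7% with shRNA 2, against 17.2%, 16.4% and 51.4% in the controls. Control replicate 3 again lay among the shRNA 1 libraries. Its log2 change with shRNA 2 was 1.14 with 7 libraries (edgeR adjusted p 0.00377) and 0.39 with 10 (edgeR adjusted p 0.920). At chr7:73645834-73645995 on the minus strand, 161 nt apart, the share was 34.2% to 46.7% with shRNA 1 and 34.9% to 50.5% with shRNA 2, against 22.2% to 30.7% in the controls. At chr12:121746053-121746161 on the minus strand, 108 nt apart, it was 2.95% to 8.58% and 3.76% to 6.68%, against 1.10% to 3.09%. The last of these overlapped with shRNA 1 only.

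Direct comparison of the shRNAs called 8 short runs with 10 libraries, 5 more distal and 3 more proximal with shRNA 2 than with shRNA 1. That is 0.491%, where 0.595% and 0.336% of all runs were called in these directions and 0.93% in either. At an unadjusted p under 0.05, 57 were more distal and 107 more proximal, beside 6.12% and 7.63% of all runs. The groups did not overlap in 106 more distal runs, or 6.5%, and 174 more proximal ones, or 10.7%, beside 8.16% and 10.4%. With 7 libraries the balance was turned, with 19 called more distal and 41 more proximal. These counts were 4 and 9 without shRNA 1 replicate 3, and 9 and 16 without shRNA 2 replicate 3, and the distal count was 11 without shRNA 1 replicate 4. The backgrounds were 2.53% and 3.11%, and 5.64% of all runs in either direction. Over the short runs the median log2 change was -0.138, beside -0.071 over all runs. Runs C, H and K, described above, were among the 8. Runs A and I kept the call in 7 of 10 fits that left out 1 library and lost it when any 1 of the 3 shRNA 2 libraries was left out, and the others kept it in 4 fits or fewer.

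Run B, chr3:39450003-39450030 on the plus strand, had its sites only 27 nt apart. The distal share was 58.1%, 41.9% and 45.9% with shRNA 2, against 5.63%, 20.9%, 11.3% and 9.32% with shRNA 1, and the controls had 14.1%, 10.8% and 16.5%. The shRNA 2 libraries stood above all others (log2 change over shRNA 1 2.91, SE 0.595, edgeR adjusted p 0.0299). Against the control the change of 2.53 had an edgeR adjusted p of 0.160 with 10 libraries and of 0.000899 with 7.

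Run A, chr11:82400902-82400928 on the plus strand, 26 nt apart, differed mainly in its proximal site. That site had 24, 26 and 16 reads with shRNA 2 and 325, 481, 783 and 610 with shRNA 1, and the controls had 46, 77 and 62. The distal site had 5, 6 and 9 reads with shRNA 2, and 10, 12, 36 and 15 with shRNA 1. Both sites were thus more abundant with shRNA 1, the proximal by more (log2 change of the ratio over shRNA 1 3.31, SE 0.627, edgeR adjusted p 0.0236).

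Run I, chr22:45591710-45591921 on the minus strand, 211 nt apart, had many reads at both sites. Its distal share was 53.5%, 55.2% and 60.8% with shRNA 2, against 8.55%, 16.3%, 19.3% and 21.2% with shRNA 1. The controls had 46.2%, 50.1% and 17.4%, and control replicate 3 lay within the range of shRNA 1. The log2 change over shRNA 1 was 2.79 (SE 0.567, edgeR adjusted p 0.0299). Against the control, shRNA 1 had a change of -1.62 with 10 libraries (edgeR adjusted p 0.269) and -1.87 with 7 (edgeR adjusted p 8.87e-05).

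Run G, chr19:12924340-12924452 on the plus strand, 112 nt apart, had a distal share of 67.4%, 71.4% and 73.3% with shRNA 2, against 93.0%, 93.3%, 87.5% and 86.4% with shRNA 1. The controls had 74.7%, 73.6% and 78.6%, nearer to shRNA 2. The log2 change over shRNA 1 was -1.96 (SE 0.450, edgeR adjusted p 0.0462), and leaving out 1 library kept the call in 2 of 10 fits.

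Run E, chr17:61909379-61909446 on the plus strand, 67 nt apart, had 3979 to 11340 proximal reads in every library and a trace distal site. That site had 19, 16 and 21 reads with shRNA 2 and 1, 0, 2 and 3 with shRNA 1, while the controls had 5, 10 and 6 (log2 change over shRNA 1 2.84, SE 0.650, edgeR adjusted p 0.0462). The distal site of run E reached the minimum mean of 5 reads mainly through shRNA 2. A difference of this direction thus comes with the run being a member. Run H had a distal share of 25.6%, 13.1% and 14.5% with shRNA 2 (log2 change over shRNA 1 -2.37, SE 0.507, edgeR adjusted p 0.0383). Run K had a distal share of 1.11%, 1.16% and 1.02% with shRNA 2, within the control range of 0.893% to 1.36% (log2 change over shRNA 1 3.26, SE 0.673, edgeR adjusted p 0.0317).

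The largest 7-library changes with shRNA 2 were mostly at minor sites of few reads, and the following were picked for their size. The run chr17:74002016-74002078 on the plus strand, 62 nt apart, had 15, 13 and 14 proximal reads with shRNA 2, against 0, 1 and 0 in the controls, beside 392 to 733 distal reads (edgeR adjusted p 0.00224 with 7 libraries and 0.104 with 10). With shRNA 1 the proximal site had 2, 0, 4 and 3 reads. The run chr14:102516931-102517128 on the plus strand, 197 nt apart, had 16, 10 and 11 proximal reads with shRNA 2, against none in the controls (edgeR adjusted p 0.00142 with 7 libraries and 0.147 with 10). Both proximal sites were nearly unread in the controls. Each reached the minimum mean of 5 reads through libraries of the shRNA groups, so that a difference of this direction comes with their being members. In the other direction, chr17:79201851-79202079 on the minus strand had sites 228 nt apart. Its distal share was 4.384%, 4.131% and 4.275% with shRNA 2, against 0.531%, 1.15% and 0% in the controls (7-library log2 change 2.28, SE 0.521, edgeR adjusted p 0.00600, and 10-library edgeR adjusted p 0.169). The distal site had 2, 6 and 0 reads in the controls and also reached the minimum through the shRNA groups.

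The 8 deepest runs held 22% of all reads in the short runs, and none of them was called with either shRNA against the control with 10 libraries. Each was almost a single site. At chr1:8921063-8921092 on the minus strand, 29 nt apart, the distal site had 6116 to 46853 reads in the shRNA libraries, against 26504 to 67294 in the controls, and the proximal site 0 to 16, against 5 to 13. The distal share at chr19:1576640-1576678 on the minus strand, 38 nt apart, was 0.1684% to 0.4263% with shRNA 1 and 0.3435% to 0.4523% with shRNA 2, against 0.4431% to 0.5095% in the controls. The shRNA 1 range lies under the controls and the shRNA 2 range overlaps them, and the log2 changes of -0.50 and -0.20 did not pass (edgeR adjusted p 0.728 and 0.943). In the deepest run, on chromosome 20, both sites fell with shRNA 1, the proximal by a log2 change of -2.04 (edgeR adjusted p 0.00406) and the distal by -1.17 (edgeR adjusted p 0.0445), and their ratio did not pass (edgeR adjusted p 0.711).

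The median log2 change with shRNA 2 was -0.217 over 805 plus-strand runs and -0.220 over 825 minus-strand runs. Over the 145 runs with a kept site of the other strand within 2000 nt beyond the distal site it was -0.116, and over the other 1485 it was -0.235. With 7 libraries these were -0.0683 and -0.225, nearer to 0 in the runs with such a neighbour in both fits, and the difference was not tested. In the 1004 runs above the minimum in every group the median was -0.193, and in the 626 others -0.272. By chromosome, the largest shares of the runs lay on chromosome 1 (9.57%) and chromosome 3 (6.56%), which hold 9.27% and 6.31% of the kept sites.

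RNA-seq also measured the mRNAs of the cleavage and polyadenylation machinery. Of 23 genes of the machinery, FIP1L1 included, 3 rose and 14 fell with shRNA 1, where 28.6% of all 15834 genes rose and 28.7% fell. With shRNA 2, 6 rose and 7 fell, beside 24.7% and 25.3% of all genes, which is near that background. NUDT21, the subunit of cleavage factor I that binds UGUA motifs, averaged 155 ± 9.91 CPM with shRNA 1 and 100.4 ± 5.61 CPM with shRNA 2, against 196 ± 5.77 CPM in the controls (SD, n = 4 each). Both falls passed (log2 change -0.34 for shRNA 1, edgeR adjusted p 7.51e-05, and -0.97 for shRNA 2, edgeR adjusted p 2.44e-11). PCF11, a subunit of cleavage factor II that links cleavage to termination, averaged 101.7 ± 7.11 CPM with shRNA 1 and 148 ± 6.30 CPM with shRNA 2, against 93.6 ± 1.97 CPM in the controls. Only its rise with shRNA 2 passed (log2 change 0.66, edgeR adjusted p 1.32e-08), and with shRNA 1 the log2 change was 0.12 (edgeR adjusted p 0.123).

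The shRNAs moved CSTF2, the subunit of the cleavage stimulation factor that binds GU-rich RNA, in opposite directions. It averaged 31.2 ± 1.23 CPM with shRNA 1 and 48.6 ± 0.592 CPM with shRNA 2, against 40.2 ± 1.40 CPM in the controls (log2 change -0.36 and 0.27, edgeR adjusted p 0.000280 and 0.00400). CPSF6, the partner of NUDT21, fell with shRNA 1 (log2 change -0.43, edgeR adjusted p 3.14e-06) and had a log2 change of -0.039 with shRNA 2 (edgeR adjusted p 0.640). Whether these changes have a part in the use of the sites was not tested.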

How the data were processed

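Kasumi-1 cells were measured by 3'READS (10 libraries, totals of 5666102 to 10846661 reads) and RNA-seq (12 libraries, 12236937 to 20388437 reads). The authors deposited raw read counts per poly(A) site and per gene. The submitters' processing notes name cutadapt 2.6, STAR 2.7.3a, DESeq2 and hg19, without their order. Replicates were not pooled. Runs were built as described above. The members and gene lists were chosen with earlier results of these data known.

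Counts were tested in R 4.3.3 with edgeR 4.0.16. For each run of at least 2 sites, the model held a term per library and a distal-by-group term over proximal and distal counts, using the outermost sites of longer runs. Single sites and genes were fitted with TMM scaling. P-values are two-sided and Benjamini-Hochberg adjusted over all runs, sites or genes, with a threshold of 0.05. The fits were tested on simulated data. Runs were named for depth, for a call with both shRNAs or for spacing at the limit, and others as stated. Alternatives used DESeq2 1.42.0, limma 3.58.1, other minimum reads and joins, and left-out libraries. Molecular identifiers were not used here, so depth speaks for counting error only. Same-numbered libraries of different groups did not deviate together (correlations -0.531 to 0.152).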

Additional observations from a re-analysis of the deposited data

Results flagged for a closer look

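In 3 of 53 groups of libraries tested, 1 library lay far from the rest of its group by Dixon's criterion, and chance flags about 1 in 20. All 3 were shRNA 1 groups. At chr3:5261544-5261649 on the plus strand, replicate 4 had a distal share of 59.14% and the other libraries 51.95% to 53.09%. At chr2:9613229-9613489 on the plus strand, replicate 1, a library that stood apart throughout, had 2.778% and the others 0.5657% to 0.6764%. At chr12:34372316-34372616 on the minus strand, replicate 2, which also stood apart, had 47.37% on 38 reads and the others 9.901% to 15.79%.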

How the results depend on the processing

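The median changes over the short runs and FIP1L1 kept their direction under the alternatives run, while the counts of single runs called did not keep their balance. More distal than proximal runs were called with 10 libraries for shRNA 1 and for shRNA 2 over shRNA 1. The reverse held in both with 7 libraries and at a minimum of 20 reads, for shRNA 1 with limma at a pseudocount of 1, and between shRNAs with DESeq2, limma at a pseudocount of 5, a minimum of 2 reads and without shRNA 1 replicate 4. With 7 libraries the balance for shRNA 1 turned back without control replicate 2. In the order shRNA 1 distal, shRNA 1 proximal, shRNA 2 distal, shRNA 2 proximal, then shRNA 2 over shRNA 1 distal and proximal, the 10-library counts of 4, 2, 0, 0, 5 and 3 became 0 to 4, 0 to 1, 0 to 1, 0 to 8, 0 to 5 and 0 to 4 when 1 library was left out. The 7 libraries gave 16, 26, 34, 115, 19 and 41. DESeq2 gave 7, 7, 2, 14, 7 and 10, and limma with a pseudocount of 5 gave 11, 8, 4, 11, 12 and 15, while a pseudocount of 1 gave 5 for shRNA 1 proximal. Sites with a minimum of 20 reads gave 4 for shRNA 1 proximal, 1 and 11 for shRNA 2, and 1 for distal between shRNAs. A minimum of 2 reads gave 1 and 0 for shRNA 1, and 0 and 1 between shRNAs. Joining to 1000 nt gave 1 for shRNA 1 proximal and 1 for proximal between shRNAs, and fitting only two-site runs gave 2 and 0 for shRNA 1 and 1 for proximal between shRNAs. With the replicate number as a block, which the libraries did not bear out as a pairing, the counts were 1 and 0 for shRNA 1, and 0 and 0 between shRNAs.

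The median change stayed negative throughout. With 1 library left out it was -0.129 to -0.0929, -0.231 to -0.199 and -0.18 to -0.121 for shRNA 1, shRNA 2 and shRNA 2 over shRNA 1. A pseudocount of 5 gave -0.0681, -0.148 and -0.105, a minimum of 20 reads -0.0542 for shRNA 1, and a minimum of 2 reads -0.0935 between shRNAs.

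With 7 libraries, leaving out 1 more gave 6 to 14, 4 to 22, 3 to 44, 17 to 131, 4 to 21 and 9 to 41 runs, DESeq2 4, 6, 12, 48, 4 and 6, and limma 8, 15, 18, 70, 7 and 13. Where this left 1 library in a group, it was taken to vary like the others. Medians were -0.247 to -0.193 for shRNA 2 and -0.158 to -0.125 between shRNAs. A minimum of 20 reads gave 42 for shRNA 1 proximal and a shRNA 2 median of -0.148. The minor site was higher in 8 to 24 runs with shRNA 1 and 13 to 147 with shRNA 2, and lower in 2 to 15 and 7 to 28. DESeq2 gave 7 and 48 higher and 3 and 12 lower, and limma 14 and 75 higher and 9 and 13 lower, with 24 lower for shRNA 1 at a minimum of 20 reads.

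Single sites were counted as proximal higher, proximal lower, distal higher and distal lower. With 1 library left out these were 64 to 143, 64 to 129, 46 to 118 and 65 to 147 for shRNA 1, 29 to 116, 11 to 85, 16 to 74 and 15 to 110 for shRNA 2, and 73 to 185, 67 to 153, 49 to 156 and 79 to 190 between shRNAs. The block gave 73, 69, 58 and 76 for shRNA 1, 36, 17, 21 and 22 for shRNA 2, and 104 and 74 higher between shRNAs. The 7 libraries gave 222, 249, 209 and 280, then 287, 204, 178 and 281, then 321, 248, 271 and 300. DESeq2 gave 125 proximal higher, 72 distal higher and 101 distal lower for shRNA 2, and a minimum mean of 1 read gave 93 proximal lower between shRNAs. The cause of these differences was not tested. The change of FIP1L1 kept its call in all 48 alternatives.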
